A study of Mus musculus with 8 samples.

Results

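The 9 chemoattractant receptor genes Ccr1, Ccr2, Cx3cr1, Cxcr4, Ccrl2, Fpr1, Fpr2, C3ar1 and C5ar1 were taken by gene symbol from the 17364 genes of the series, and all 9 were found. They were followed in macrophages obtained by culturing mouse bone marrow (BMDMs). The 4 wild-type libraries came from cells of unaltered mice, and the 4 Sept2C111A libraries from cells of mice with the Sept2C111A allele, named for an alanine put in place of a cysteine of septin 2, a GTP-binding cytoskeletal protein. All 8 cultures had been given TNF-α, an inflammatory cytokine, at 30 ng/ml for 24 h, so there is no untreated group and the values compare the genotypes in the treated state. The labels give no strain, sex or age, and they do not say whether the libraries of a genotype came from separate mice. The p-values then measure the spread between these libraries, which may be technical. By its title, the series asks about inflammation and migration of macrophages.

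Chemoattractant receptors are membrane receptors with a shared 7-helix fold that let a leukocyte sense a gradient of a ligand and move along it. Most signal through inhibitory G proteins to phosphoinositide 3-kinase, RAC and the actin cytoskeleton, and are switched off by receptor kinases and arrestins. Ccr1, Ccr2, Cx3cr1 and Cxcr4 encode chemokine receptors. Ccrl2 encodes an atypical receptor that binds chemerin without signalling through G proteins. Fpr1 and Fpr2 encode receptors for formyl peptides, which bacteria and damaged mitochondria release, and C3ar1 and C5ar1 encode the receptors for the complement fragments C3a and C5a.

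The promoters of 5 members are printed because these genes carry the findings: Cxcr4 had the largest difference between genotypes, C3ar1 and C5ar1 differed in opposite directions, and Fpr1 and Fpr2 are neighbours on chromosome 17. Each is 300 bases in the direction of the gene, 250 before and 50 from the start site, from RefSeq on GRCm38.p6, which is the mm10 build. Capitals mark matches to any of the motifs listed after the sequences.
Cxcr4, chr1:128592250-128592549, minus strand: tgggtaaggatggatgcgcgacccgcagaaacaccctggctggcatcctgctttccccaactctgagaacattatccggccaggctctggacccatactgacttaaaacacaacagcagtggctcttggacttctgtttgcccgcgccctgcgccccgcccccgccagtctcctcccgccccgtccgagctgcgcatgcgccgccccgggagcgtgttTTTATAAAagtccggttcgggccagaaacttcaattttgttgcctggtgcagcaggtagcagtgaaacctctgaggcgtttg
C3ar1, chr6:122856108-122856407, minus strand: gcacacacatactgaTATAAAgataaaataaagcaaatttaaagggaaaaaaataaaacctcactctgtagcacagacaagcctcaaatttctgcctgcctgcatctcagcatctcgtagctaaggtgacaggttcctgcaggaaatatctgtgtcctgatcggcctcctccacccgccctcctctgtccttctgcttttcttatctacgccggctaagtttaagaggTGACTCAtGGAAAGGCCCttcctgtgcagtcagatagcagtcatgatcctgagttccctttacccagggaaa
C5ar1, chr7:16259289-16259588, minus strand: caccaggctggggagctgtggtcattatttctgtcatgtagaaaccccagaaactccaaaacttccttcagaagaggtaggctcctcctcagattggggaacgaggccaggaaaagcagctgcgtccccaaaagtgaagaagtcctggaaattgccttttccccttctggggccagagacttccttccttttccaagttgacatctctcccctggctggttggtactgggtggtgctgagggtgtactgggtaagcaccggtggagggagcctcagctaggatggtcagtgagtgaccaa
Fpr1, chr17:17883890-17884189, minus strand: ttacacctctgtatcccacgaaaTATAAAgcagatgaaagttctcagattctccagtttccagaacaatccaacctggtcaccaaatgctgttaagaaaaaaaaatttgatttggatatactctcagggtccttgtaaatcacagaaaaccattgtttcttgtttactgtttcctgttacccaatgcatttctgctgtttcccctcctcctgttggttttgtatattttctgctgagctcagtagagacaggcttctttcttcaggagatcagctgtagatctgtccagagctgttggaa
Fpr2, chr17:17887574-17887873, plus strand: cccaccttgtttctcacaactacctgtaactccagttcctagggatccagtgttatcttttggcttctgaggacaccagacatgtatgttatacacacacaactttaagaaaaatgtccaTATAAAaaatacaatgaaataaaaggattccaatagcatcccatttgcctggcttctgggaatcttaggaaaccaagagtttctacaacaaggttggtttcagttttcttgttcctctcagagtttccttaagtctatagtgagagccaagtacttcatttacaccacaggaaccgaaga

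Searched on both strands were the interferon-stimulated response element (GAAA and GAAA with any 2 bases between), NF-κB (GGG and TTTCC with any 2 bases between), AP-1 (TGANTCA), PU.1 (GAGGAAGT), the hypoxia response element (ACGTG) and the TATA box (TATAAA). Of 32851 promoters of that length, they were present in 3.44%, 1.63%, 7.81%, 3.20%, 19.6% and 13.6%. The Cxcr4 promoter held TATAAA at position -30, overlapping a match on the other strand at -32. The C3ar1 promoter held the AP-1 letters TGACTCA at -22, the NF-κB letters on the other strand at -14 and TATAAA at -235. Fpr1 and Fpr2 held TATAAA at -227 and -130. No match was found in the C5ar1 window, which says only that these letters are not in it. That window is set on a start site at 16259338, while the annotated gene reaches 16259540, and no window was set on that outer end. The start sites of Fpr1 and Fpr2 lie 3885 bases apart on opposite strands, so that the genes are read away from each other.

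Libraries held 19543958 to 21288493 expected counts (reads per gene as estimated by a model that shares out reads matching several genes). On the first principal component, which held 45.1% of the variance, Sept2C111A libraries 2 and 3 lay at 28.2 and 36.6, apart from libraries 1 and 4 at 0.87 and -1.97. Wild-type libraries lay between -19.4 and -11.2. Sept2, listed as Septin2, lies on chromosome 1 at 93478981 to 93509733 and measured 226 ± 7.43 and 188 ± 18.7 CPM (counts scaled to normalized library size; mean ± SD, n = 4 in each genotype, as in all values with ±). It was not called in edgeR (adjusted p = 0.0627), but was in DESeq2, and in edgeR without Sept2C111A library 3 and without libraries 2 and 3. Gene counts cannot show the edited codon. Defining macrophage genes were abundant, with Lyz2 at 14365 ± 498 and 12366 ± 897 CPM. The 9 macrophage markers summed to 23108 to 24886 CPM in wild-type and 20950 to 22817 CPM in Sept2C111A libraries. Most of each sum was Lyz2, and the median log2 fold change of the 9 was -0.07. Of these 9 markers Fcgr1 rose in edgeR and the others did not pass, where 3.43% of all tested genes rose and 3.03% fell. At an unadjusted edgeR p under 0.05 there were 7, against 24.8% of all tested genes. DESeq2 also called Cd68 higher and Lyz2 lower (11.7% of all genes called). In edgeR without Sept2C111A libraries 2 and 3, Mertk was also called higher and Cd14 and Lyz2 lower (3.86% called). Mertk was called higher without library 3 (5.66% called) and Itgam lower without library 4 (16.5% called). In these bulk libraries, fewer cells of a type and less RNA per cell cannot be told apart.

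Of the 9 receptor genes, Cxcr4 and C3ar1 rose in Sept2C111A libraries, C5ar1 and Fpr2 fell, and 5 did not pass the test. Cxcr4 rose 2.34-fold, while the other 3 changed by 18.8% to 23.3%. The test was edgeR's quasi-likelihood F test with Benjamini-Hochberg adjustment over all 12462 tested genes, with calls made where the adjusted p was under 0.05. All 9 members passed the filter on low counts. Among all tested genes 6.46% were called, 3.43% higher and 3.03% lower. Both genotypes lay apart, without overlap, for 4 of the 9 members, against 16.9% of all tested genes, 8.47% higher and 8.47% lower. The median log2 fold change was -0.25 over the members and 0.01 over all tested genes. At an unadjusted p under 0.05 there were 6 members, against 24.8% of all tested genes.

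**Figure D1:**
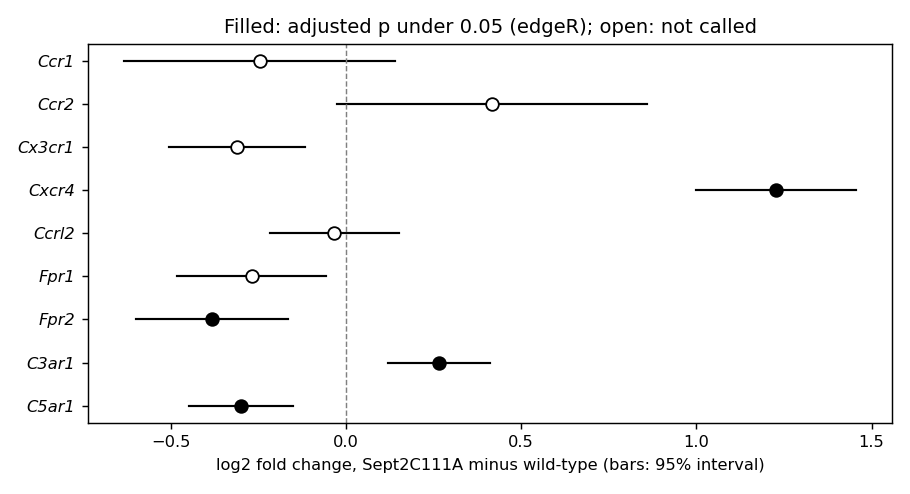
Log2 fold change of the 9 receptor genes, Sept2C111A minus wild-type, on the x axis, with bars for the 95% interval of the edgeR fit over 4 libraries in each genotype. Cxcr4 at 1.23 lies far to the right of the other genes, which lie between -0.38 and 0.42; filled points passed the test and open points did not.

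Per length, the levels of the members spanned a wide range, from the anaphylatoxin receptors down to Ccr1 and Ccr2. The level here is CPM per kb of annotated exon, with lengths from GENCODE M21 on the same build; the annotation behind the counts is not given, so levels of different genes are approximate. In wild-type libraries C5ar1 came first at 224 ± 7.07 CPM per kb and C3ar1 next at 187 ± 5.36, and their ranges did not overlap. Fpr2 at 99.1 ± 6.73 and Fpr1 at 86.5 ± 10.6 CPM per kb followed, with overlapping ranges. Ccrl2 had 40.9 ± 1.44, Cxcr4 19.1 ± 2.20 and Cx3cr1 8.27 ± 0.414 CPM per kb, each separate from its neighbours. Ccr1 at 0.738 ± 0.0563 and Ccr2 at 0.362 ± 0.103 CPM per kb came last.

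The order differed in Sept2C111A libraries at 2 places. C3ar1 stood first at 224 ± 14.6 CPM per kb, above C5ar1 at 182 ± 13.3, again without overlap between the genes. This exchange rests on the exon lengths used, 4305 bases for C3ar1 and 2570 for C5ar1, since in CPM C3ar1 was the higher of the pair in all 8 libraries. Cxcr4 reached 44.7 ± 5.14 CPM per kb, a range that overlapped that of Ccrl2 at 39.9 ± 4.76. Fpr2 and Fpr1, at 76.0 ± 10.5 and 71.8 ± 6.81 CPM per kb, overlapped as in wild type. Cxcr4 made up 2.47% to 3.16% of the members' summed level per kb in wild-type libraries and 5.77% to 7.50% in Sept2C111A libraries.

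**Figure D2:**
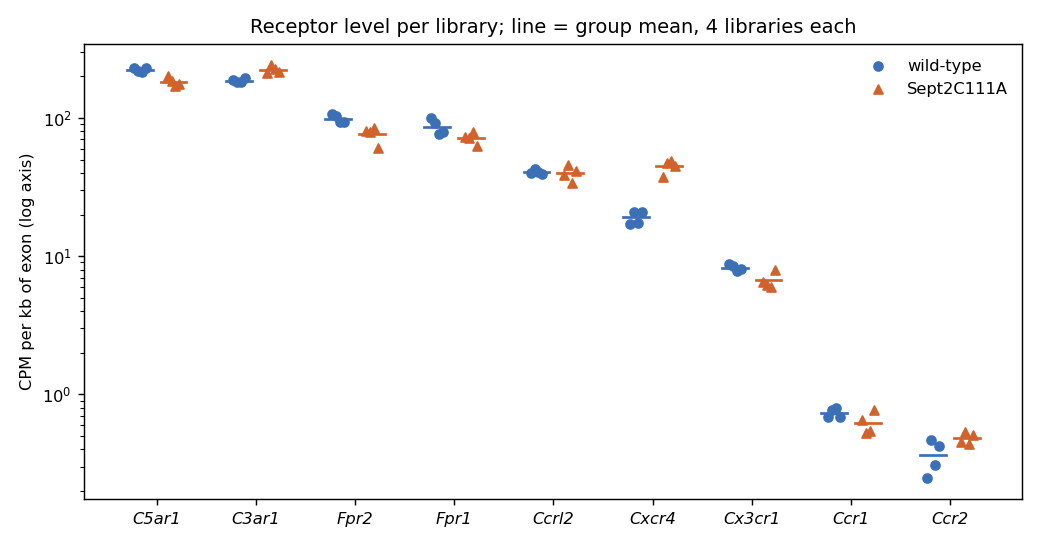
Level of each receptor gene in CPM per kb of exon, on a log axis, in wild-type (circles) and Sept2C111A libraries (triangles); each point is 1 library and each line the mean of 4. Cxcr4 is the gene with the widest gap between genotypes, from 19.1 to 44.7 CPM per kb, and C3ar1 and C5ar1 exchange places.

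Cxcr4, the receptor for the stromal chemokine CXCL12 that holds leukocytes in the bone marrow, lies on chromosome 1 at 128588199 to 128592299. It measured 30.8, 37.9, 31.4 and 38.0 CPM in wild-type libraries 1 to 4 and 67.5, 85.9, 88.3 and 81.4 CPM in Sept2C111A libraries 1 to 4. Every Sept2C111A library lay above every wild-type library, and the lowest of them, library 1, still stood well clear of the highest wild-type value. The means were 34.5 ± 3.98 and 80.8 ± 9.29 CPM, a log2 fold change of 1.23 (SE 0.10) with an edgeR adjusted p of 0.00028. The call was kept in all 17 alternatives, with log2 fold changes of 1.11 to 1.3. Without Sept2C111A libraries 2 and 3 the value was 1.11 (adjusted p = 0.00042 in edgeR). No 50-base window of its annotated transcripts occurred in transcripts of another gene.

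C3ar1, on chromosome 6 at 122847140 to 122856157, rose. It measured 809, 788, 782 and 833 CPM in wild-type libraries 1 to 4, and 906, 1047, 981 and 927 CPM in Sept2C111A libraries 1 to 4. The genotypes did not overlap, and Sept2C111A libraries 2 and 3 were the highest. This was a log2 fold change of 0.27 (SE 0.066; edgeR adjusted p = 0.0386). C5ar1, on chromosome 7 at 16246743 to 16259540, fell. Its values were 589, 566, 557 and 594 CPM in wild-type and 514, 473, 437 and 449 CPM in Sept2C111A libraries, again without overlap. Here Sept2C111A library 1 lay nearest to wild type. This was a log2 fold change of -0.30 (SE 0.067; edgeR adjusted p = 0.0272). Both calls were lost in each fit that omitted 1 wild-type library, whichever it was, and in the fit omitting Sept2C111A library 2 (adjusted p 0.0833 to 0.142 for C3ar1 and 0.0607 to 0.0975 for C5ar1). Without Sept2C111A libraries 2 and 3 they were also lost, at log2 fold changes of 0.19 and -0.26 (adjusted p = 0.0931 and 0.0666).

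Fpr2, which also binds lipid and annexin ligands, lies on chromosome 17 at 17887824 to 17893952 and fell. It measured 138, 134, 121 and 121 CPM in wild-type libraries and 104, 102, 109 and 78.7 CPM in Sept2C111A libraries 1 to 4. The genotypes did not overlap, with Sept2C111A library 4 the lowest. The fit gave a log2 fold change of -0.38 (SE 0.098; edgeR adjusted p = 0.0435). Omitting any one of the wild-type libraries, or Sept2C111A library 1 or 2, ended the call (adjusted p 0.0540 to 0.144), and omitting libraries 2 and 3 together did not (log2 fold change -0.49, adjusted p = 0.0274). Of the 50-base windows of its transcripts, 31.5% also occur in transcripts of other genes, 368 of 1295 windows in the gene model Gm5966 and 82 in its neighbour Fpr3. Fpr3 had at most 1 read in any library and Gm5966 was not used here, so the split of reads behind the value of Fpr2 is uncertain.

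Fpr1, at 17876471 to 17883939 on the same chromosome, measured 131, 121, 102 and 104 CPM in wild-type and 96.5, 94.6, 106 and 83.7 CPM in Sept2C111A libraries. The genotypes overlapped, since Sept2C111A library 3 lay above wild-type libraries 3 and 4. The log2 fold change was -0.27 (95% interval -0.48 to -0.06), which did not pass (edgeR adjusted p = 0.119). Only 1 of its 1275 windows was shared with another gene, Fpr2. Neutrophils carry formyl peptide and C5a receptors too, and the neutrophil markers were low in both genotypes. The 9 of them summed to 2.10 to 3.72 CPM in wild-type and 2.41 to 8.28 CPM in Sept2C111A libraries, and Ly6g, Mpo and Elane had at most 1 read in any library. S100a9, the highest, measured 1.31 ± 0.394 and 1.80 ± 1.02 CPM.

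The fractalkine receptor gene Cx3cr1, on chromosome 9 at 120048683 to 120068296, measured 39.5, 37.9, 35.1 and 36.6 CPM in wild-type and 29.5, 28.0, 27.1 and 35.5 CPM in Sept2C111A libraries. Sept2C111A library 4 lay among the wild-type values and the other 3 lay below all of them. The log2 fold change of -0.31 (95% interval -0.51 to -0.12) did not pass (edgeR adjusted p = 0.0627). Without Sept2C111A library 4 it was -0.40 and passed (adjusted p = 0.0054), where 16.5% of all tested genes were called. DESeq2 also called it (adjusted p = 0.023). In GENCODE the locus overlaps 9 other genes, some on the opposite strand, and 1.06% of its windows are shared.

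Ccr2, the receptor for CCL2 through which inflammatory monocytes leave the marrow, had 35 to 68 reads in wild-type and 58 to 73 reads in Sept2C111A libraries. Its level ran from 1.67 to 3.17 CPM and from 2.95 to 3.60 CPM. The genotypes overlapped, and the log2 fold change was 0.42 (95% interval -0.02 to 0.86, edgeR adjusted p = 0.225). Ccr1, a receptor for CCL3 and CCL5, had 41 to 48 and 28 to 46 reads, at 1.96 to 2.26 and 1.48 to 2.18 CPM. Its log2 fold change was -0.25 (95% interval -0.63 to 0.14, edgeR adjusted p = 0.414). Counting alone gives 28 reads an exact 95% Poisson interval of 18.6 to 40.5 reads, for counting error only. Of the 6758 windows of Ccr2, 1.91% also occur in transcripts of other genes, so its low count is uncertain.

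Ccrl2, on chromosome 9 at 111054834 to 111057518, ran from 103 to 112 CPM in wild-type and from 88.5 to 118 CPM in Sept2C111A libraries. The Sept2C111A values spread over and beyond the wild-type range, with library 3 lowest and library 2 highest. The log2 fold change was -0.03 (95% interval -0.22 to 0.15, edgeR adjusted p = 0.843). The interval leaves room for a difference in either direction.

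Ratios of receptor genes within a library, which do not depend on how libraries are scaled, are described for 4 pairs. Log2 ratios, with 0.1 CPM added to each gene, were compared by exact permutation (two-sided, 4 libraries against 4, smallest possible p 0.0286) and adjusted over the 5 pairs tested. C3ar1 over C5ar1 was 1.37 to 1.4 in wild-type and 1.76 to 2.25 in Sept2C111A libraries, a log2 difference of 0.57. With C3ar1 higher and C5ar1 lower in every Sept2C111A library than in any wild-type library, this ratio had to separate the genotypes, so its test adds nothing to the calls of the genes. The 4 wild-type ratios lay within a narrow band, with an SD of 0.015 on the log2 scale against 0.16 in Sept2C111A. Such a ratio shows that the 2 genes did not change by the same factor, and not whether either was constant.

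Ccr2 over Cx3cr1, a pair whose balance is used to tell inflammatory from patrolling monocytes, was 0.0447 to 0.0861 in wild-type and 0.0997 to 0.132 in Sept2C111A libraries. The log2 difference was 0.76 (exact p = 0.0286, adjusted p = 0.0357), although neither gene passed alone in edgeR. The monocyte markers summed to 118 to 169 CPM and 48.8 to 127 CPM, nearly all of it F13a1 (138 ± 22.0 and 77.4 ± 35.6 CPM), while Ly6c2 had at most 11 reads. F13a1 did not pass (log2 fold change -0.83, edgeR adjusted p = 0.097). It was called lower without Sept2C111A library 1 or 4, where 7.76% and 16.5% of all tested genes were called. The part of the monocyte markers in the ratio was not tested. Fpr1 over Fpr2 was 0.845 to 0.953 and 0.928 to 1.06, overlapping ranges (log2 difference 0.13, exact p = 0.114, adjusted p = 0.114).

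The remaining pair set a member against a receptor that shares its ligand. Ccrl2 over the chemerin receptor gene Cmklr1 was 1.88 to 1.99 in wild-type and, lower, 1.59 to 1.69 in Sept2C111A libraries (log2 difference -0.26, exact p = 0.0286, adjusted p = 0.0357). Ccrl2 itself had nearly equal means, and Cmklr1 measured 54.2 ± 1.37 and 63.3 ± 6.65 CPM without passing in edgeR (adjusted p = 0.11).

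**Figure D3:**
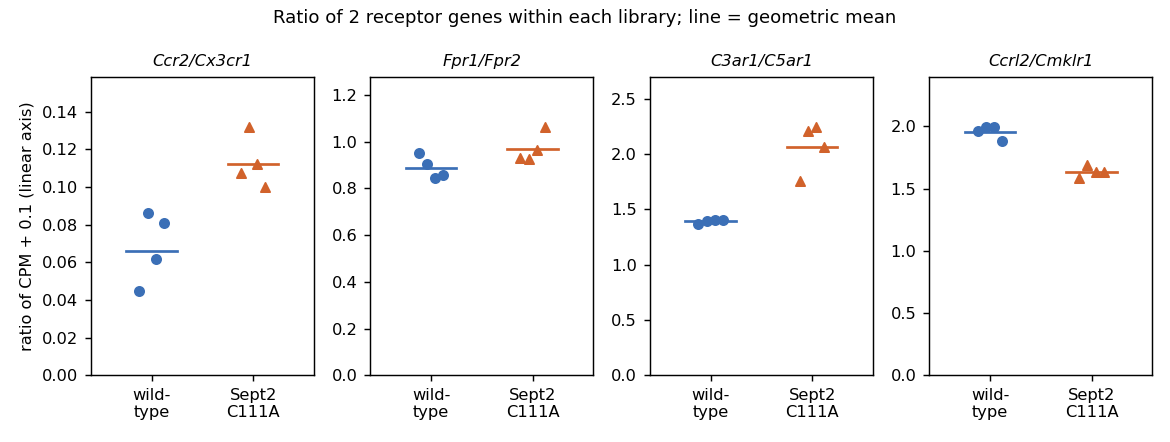
Ratio of CPM (with 0.1 added) of 2 receptor genes within each library, on linear axes from 0, for wild-type (circles) and Sept2C111A (triangles), each point 1 library and each line the geometric mean of 4. The C3ar1/C5ar1 points of wild type lie between 1.37 and 1.4, below all Sept2C111A points, and the Fpr1/Fpr2 points overlap.

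Among other chemoattractant receptors, Cmklr1 and Ccr3 did not pass in the fit of all 8 libraries (edgeR adjusted p = 0.11 and 0.263). Cmklr1 was called higher in 2 of the 17 alternatives. These were the fit omitting Sept2C111A library 3, where 5.66% of all tested genes were called, and that omitting libraries 2 and 3 (3.86% called). Ccr3 was also called higher in the fit omitting libraries 2 and 3. The lymphocyte and dendritic cell receptors Ccr4, Ccr7 and Ccr8 had at most 2 reads in any library.

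Among the 14 ligands of the members that were tested, 5 fell, 1 rose and 8 did not pass (median log2 fold change -0.43). Over all tested genes 3.03% fell and 3.43% rose. DESeq2 called 9 of 15 ligands lower and 1 higher, in a fit that called 11.7% of all genes against 6.46% in edgeR. Ccl3 fell from 172 ± 6.24 to 116 ± 11.4 CPM (log2 fold change -0.57) and Saa3, a serum amyloid that FPR2 binds, from 35.7 ± 3.68 to 16.4 ± 3.94 CPM (-1.12). Ccl6, a CCR1 ligand, rose from 468 ± 14.6 to 672 ± 68.8 CPM (0.52). The edgeR adjusted p was 0.0018, 0.0019 and 0.0035 for these 3, each kept in all 17 alternatives.

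The other ligands were chosen for naming after their values were seen. Cx3cl1, the ligand of CX3CR1, fell from 57.1 ± 4.08 to 34.6 ± 8.22 CPM, lost without wild-type library 2 or 3. Ccl5 fell from 194 ± 18.8 to 105 ± 33.1 CPM, lost without wild-type library 1, 3 or 4. Ccl2 fell from 60.1 ± 8.19 to 32.9 ± 12.4 CPM, a call ended by omitting any one of the wild-type libraries, or Sept2C111A library 2 or 3, or both of these. Falls among the ligands came to 3 with wild-type library 1, 2 or 4 omitted (2.24%, 3.77% and 2.99% of all tested genes called). With wild-type library 3 omitted they came to 2 (2.12% called). With Sept2C111A library 1, 2, 3 or 4 omitted they came to 6, 5, 4 and 7 (7.76%, 2.86%, 5.66% and 16.5% called). Cxcl12, the ligand of CXCR4, measured 83.2 ± 7.97 and 59.7 ± 15.6 CPM and did not pass (edgeR adjusted p = 0.095), though it was called lower by DESeq2 and without Sept2C111A library 4. Its receptor gene rose. Stromal cells are a source of CXCL12. The 7 stromal markers summed to 4322 to 5658 CPM in wild-type and 3392 to 4275 CPM in Sept2C111A libraries. Of the 7, 2 fell, against 3.03% of all tested genes. Col1a1 measured 2056 ± 257 and 1545 ± 168 CPM (edgeR adjusted p = 0.045). The values of Acta2, chosen on sight of them, were 1016 ± 121 and 659 ± 112 CPM without overlap (log2 fold change -0.62, edgeR adjusted p = 0.018). With wild-type library 1 or 3 omitted neither was called, and with wild-type library 4 or Sept2C111A library 2 or 3 omitted Acta2 alone was. Falls among the stromal markers numbered 4 with Sept2C111A library 1 omitted, 5 with library 4 omitted and 3 with wild-type library 2 omitted. Those fits called 7.76%, 16.5% and 3.77% of all tested genes. DESeq2 and edgeR without a filter on low counts each called 4 lower (11.7% and 4.64% of all tested genes called), and limma voom 3 (6.52%). With the replicate number in the fit, or without Sept2C111A libraries 2 and 3, Acta2 alone was called (3.96% and 3.86%). The part of the stromal markers in the lower ligand values was not tested.

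Of 22 signal transduction genes, Gng2, a G protein γ subunit, rose from 66.8 ± 2.92 to 96.9 ± 12.2 CPM (log2 fold change 0.54, edgeR adjusted p = 0.0058) and 21 did not pass. The median was 0.00 on the log2 scale, and over all tested genes 3.43% rose and 3.03% fell. At an unadjusted edgeR p under 0.05 there were 8 of the 22, against 24.8% of all tested genes. The genotypes did not overlap for 7 of the 22, against 16.9% of all tested genes. With Sept2C111A library 4 omitted, 2 rose and 4 fell, in a fit that called 16.5% of all tested genes. With library 3 omitted, where 5.66% of all tested genes were called, 1 rose and 1 fell, the latter being Pik3r5, a kinase subunit named after its values were seen. With all 8 libraries Pik3r5 lay lower in Sept2C111A without overlap but did not pass (log2 fold change -0.37, edgeR adjusted p = 0.0526). It was also called lower without Sept2C111A library 4, with upper-quartile scaling, without a filter on low counts, and by DESeq2 and limma voom. Those fits called 16.5%, 6.46%, 4.64%, 11.7% and 6.52% of all tested genes. Among 13 genes of receptor desensitisation, Rgs2 and Rgs10 rose, Rgs16 fell and 10 did not pass. Over all tested genes 3.43% rose and 3.03% fell in the same fit. All 3 called genes encode regulators that speed the shut-off of G protein signals. Rgs2 went from 13.9 ± 0.597 to 19.9 ± 1.42 CPM, Rgs10 from 133 ± 5.66 to 180.4 ± 28.4 CPM and Rgs16 from 19.3 ± 3.02 to 11.5 ± 2.97 CPM. The list median was 0.12. Rgs2 was called in all 17 alternatives. The call of Rgs10 was ended by omitting any one of the wild-type libraries, Sept2C111A library 2, or libraries 2 and 3 together. That of Rgs16 was ended by omitting wild-type library 1, 2 or 3, Sept2C111A library 2, or libraries 2 and 3 together. In this list 4 rose and 1 fell with Sept2C111A library 4 omitted (16.5% of all tested genes called), and 3 rose and 1 fell with library 1 omitted (7.76% called).

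**Figure D4:**
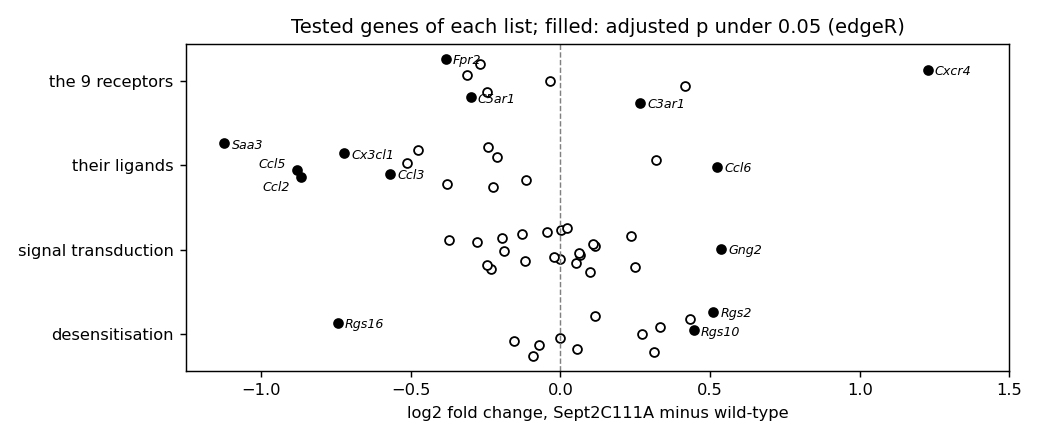
Log2 fold change, Sept2C111A minus wild-type, of every tested gene of the receptors, ligands, signal transduction and desensitisation lists, each point 1 gene and filled where it was called. Ligands lie mostly left of 0, with a median of -0.43, while Cxcr4 lies at 1.23 on the right.

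The genes whose pattern over the 8 libraries was nearest to that of each called member were found by the root mean square difference of log2 CPM after centring each gene on its mean. For Cxcr4 they were the Fc receptor gene Fcgr1 (difference 0.14), Ms4a6b (0.14) and Lgals3bp (0.14), which rose by 1.18, 1.10 and 1.05 on the log2 scale. For Fpr2 they were Siglece (0.072), Sod2 (0.081) and Sap30 (0.082). For C3ar1 they were Tmem171 (0.026), Tpra1 (0.029) and Mcoln1 (0.032), and for C5ar1 they were Cdc42ep4 (0.040), Kdm4b (0.052) and Zyx (0.052). These differences describe likeness over 8 libraries that share 2 genotypes.

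Of the 9 members, the calls of Fpr2, C3ar1 and C5ar1 were lost on omitting single libraries and that of Cxcr4 was not. The log2 fold changes of these 3 kept their direction on leaving out each library in turn. They ran from -0.44 to -0.28 for Fpr2, from 0.23 to 0.30 for C3ar1 and from -0.35 to -0.27 for C5ar1. In each of the 5 fits that omitted 1 wild-type library or Sept2C111A library 2, Cxcr4 was the only member called. In those fits 2.12% to 3.77% of all tested genes were called.

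**Figure D5:**
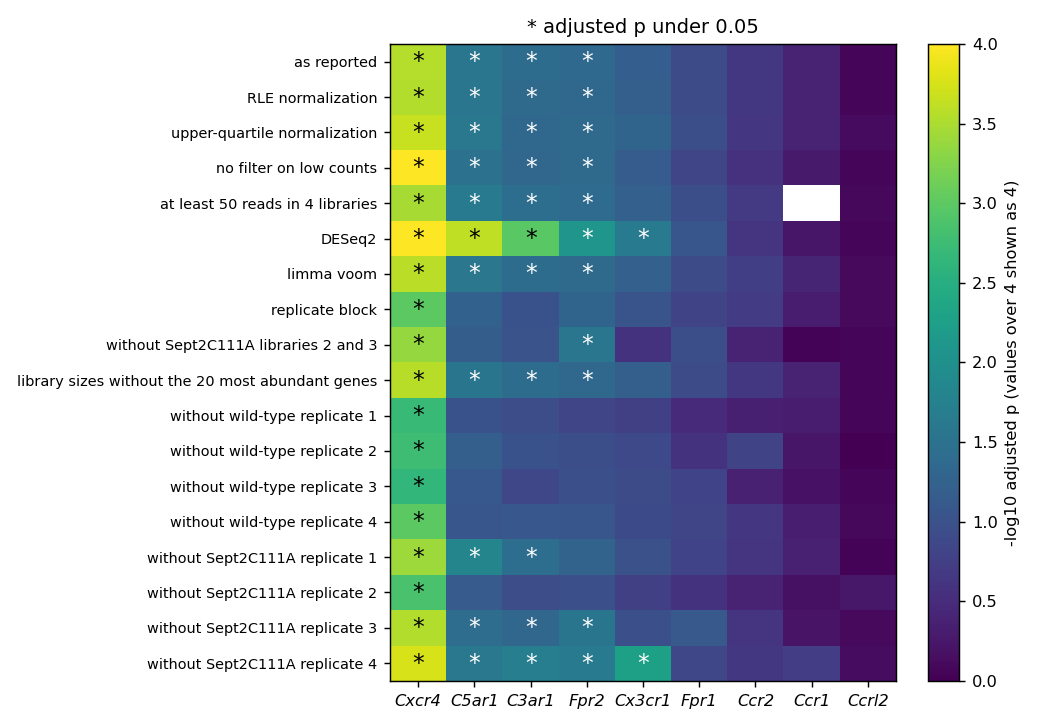
Adjusted p of each receptor gene (columns) as reported and under 17 alternatives (rows), coloured by -log10 with values over 4 shown as 4; an asterisk marks an adjusted p under 0.05 and a blank cell a gene not tested. The Cxcr4 column carries an asterisk in every row, and those of C5ar1, C3ar1 and Fpr2 lose it in 7 rows each.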

How the data were processed

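Poly(A)-selected RNA of 8 libraries was sequenced, 4 wild-type and 4 Sept2C111A, grouped by their titles. The authors deposited a file of expected counts for each library, with genes given by symbol. Listed without roles in the submitters' processing notes are mm10, RSEM 1.3.1, Bowtie2 and DESeq2 1.4.5, and oligo(dT) enrichment is recorded per the labels' protocols. The sources used here do not give the annotation or strandedness. Expected counts were rounded, filtered with filterByExpr (minimum count 10) and normalized by trimmed mean of M values (TMM). They were tested with edgeR 4.0.16 in R 4.3.3, with genotype as the only term. The SE is the fold change over the square root of F. A count of 3 reads corresponds to 0.14 to 0.16 CPM. No library was a copy of another: comparing counts pair by pair over 11481 genes with at least 200 reads gave a chi-square of 3.87 or more for each gene on average.

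The members and lists were chosen with earlier results of these data known. Named were all members, Sept2, up to 3 called genes of each list by adjusted p or its most abundant gene, the most abundant marker of main cell types, the genes of the 5 ratios and the 3 genes nearest to each called member (mean of at least 2 CPM, unnamed models left out). One of the 5 ratios and the counts of the list of other receptors are not reported here. Any gene named outside this rule was chosen after its values were seen. The marker lists of dendritic, B, T, mast and endothelial cells summed to at most 15.1 CPM in any library. Counts were simulated for this comparison over 12387 genes with a coefficient of variation of 0.1 in both genotypes. On the log2 scale, 96% of 100 genes changed by 1 and 67% of 100 changed by 0.5 were recovered, with 7 false calls. The common coefficient estimated from the data was 0.060 in wild-type and 0.14 in Sept2C111A libraries. Smaller changes, such as those of C3ar1, C5ar1 and Fpr2, were not simulated. Alternatives used DESeq2 1.42.0 and limma voom 3.58.1, other scaling and filters, a replicate block and libraries left out.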

Additional observations from a re-analysis of the deposited data

How the results depend on the processing

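The number of called genes, 805 as reported, was 1402 with DESeq2, 494 with the replicate block, 492 without Sept2C111A libraries 2 and 3, and 266 to 2077 on leaving out each library in turn. The number of called receptor genes, 4 as reported, was 1 with the replicate block, 2 without Sept2C111A libraries 2 and 3, and 1 to 5 on leaving out each library in turn. The cause was not tested. RLE and upper-quartile scaling, the filters on low counts, limma voom and library sizes without the 20 most abundant genes left the same 4 receptor genes called. The replicate numbers are shared by both genotypes in the labels. Correlations of deviations were 0.14, 0.096, -0.023 and -0.24 for same-numbered libraries and -0.22 to 0.25 for other pairings. With 4 libraries in each genotype, these values cannot show whether same-numbered libraries were prepared together. With the block Fpr2, C5ar1 and C3ar1 were at edgeR adjusted p = 0.051, 0.057 and 0.099. The ratios that separated the genotypes also did so with a pseudocount of 0.5 CPM, and with 3 libraries against 4 an exact test cannot go below 0.0571, so those ratios were given no test; none changed direction. The direction turned for Ccrl2 without Sept2C111A library 3 (log2 fold change 0.037, and -0.096 to 0.037 on leaving out each library in turn). In alternatives chosen after seeing the data, it turned for S100a9 without Sept2C111A library 1 (-0.022, and -0.022 to 0.64 on leaving out each library in turn) and for Mcpt8 without Sept2C111A libraries 2 and 3 (0.035), none of them called. The members with the fewest reads were Ccr1 and Ccr2, with 28 to 73 per library.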
